A study of Mus musculus with 2 samples.

Results

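Secreted or membrane-bound regulators of the extracellular matrix were followed in the early rib callus, 10 genes in all: 7 matrix metalloproteinases (MMPs), namely *Mmp2*, *Mmp3*, *Mmp9*, *Mmp12*, *Mmp13*, *Mmp14* and *Mmp19*, and the 3 tissue inhibitors of metalloproteinases *Timp1*, *Timp2* and *Timp3*. They were chosen by name, out of 31054 genes in the count matrices, and all 10 had reads in both libraries. Single-cell RNA sequencing was performed on 1 control and 1 *Smo* cKO library, each from the pooled calluses of 3 mice at 4 days post injury (dpi). Control animals were Sox9:CreER;R26:tdT;Smof/+ and *Smo* cKO animals were Sox9:CreER;R26:tdT;Smof/f, so that both genotypes carried the tamoxifen-inducible Cre, the tdTomato reporter and at least 1 floxed *Smo* allele. Both received 3 tamoxifen injections before a segment of rib was resected, and the study used animals of 8 to 12 weeks of age. Cre was driven by *Sox9*, so deletion of *Smo*, the transducer through which cells respond to Hedgehog ligands, was limited to *Sox9*-lineage cells and their descendants, and all other callus cells kept the gene. The question addressed was which callus cells carry the transcripts of each protease and inhibitor, and how these levels differ when Hedgehog signaling is removed from the *Sox9* lineage.

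MMPs are zinc-dependent endopeptidases that are made as inactive precursors and, once activated, cleave collagens, proteoglycans and other matrix and cell surface proteins. TIMPs bind the active site of MMPs and block it, and the balance of both sets how fast a matrix is removed. In bone repair, MMPs open the provisional matrix for invading cells and vessels, and *Mmp9* and *Mmp13* in particular are known for their role in replacing callus cartilage by bone.

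Each library held over 10000 cell barcodes. After cells with under 200 detected genes or with 10% or more mitochondrial UMIs (unique molecular identifiers, each counting 1 captured RNA molecule) were removed, 10057 control and 9507 *Smo* cKO cells were left, with medians of 8367 and 9092 UMIs per cell. Cells were assigned to classes by marker genes, none of which is a member, giving 6647 control and 5363 *Smo* cKO connective-like cells, 1310 and 1645 macrophage-like, 397 and 232 osteoclast-like, 98 and 131 neutrophil-like, 169 and 101 dendritic-like, 162 and 311 muscle-like and 62 and 62 endothelial-like cells. Of the 9 osteoclast markers, 7 were at 26.3 CPM (UMIs of a gene per 1000000 UMIs of all genes) or above in osteoclast-like cells of both libraries, while *Calcr* and *Siglec15* were at or near 0. In connective-like cells *Smo* itself was at 19.1 CPM in control and 12.5 CPM in *Smo* cKO, a log2 ratio of -0.61 (95% counting interval -0.72 to -0.50). A set of 613 barcodes occurred in both libraries, 599 of them kept in both, and within these pairs the deeper cell held a median of 59.5 times the UMIs of the shallower one. The shallower copy was in the control library for 390 pairs and in the *Smo* cKO library for 209. Results were therefore also computed without every shared barcode. None of the 21 ratios recomputed this way crossed the 2-fold line used for calls.

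A level in CPM is taken from UMIs summed over the cells of a class in 1 library. UMIs were not divided by transcript length, so levels of single genes are compared between classes and libraries and not with those of other genes. With 1 library per genotype there is no replicate, no p-value was computed, and all intervals cover counting error only. A difference between genotypes was called where a gene was at 50 CPM or above in at least 1 library and at least 2-fold apart. Differences between animals, between dissections and between genotypes cannot be told apart in this design.

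**Figure D1:**
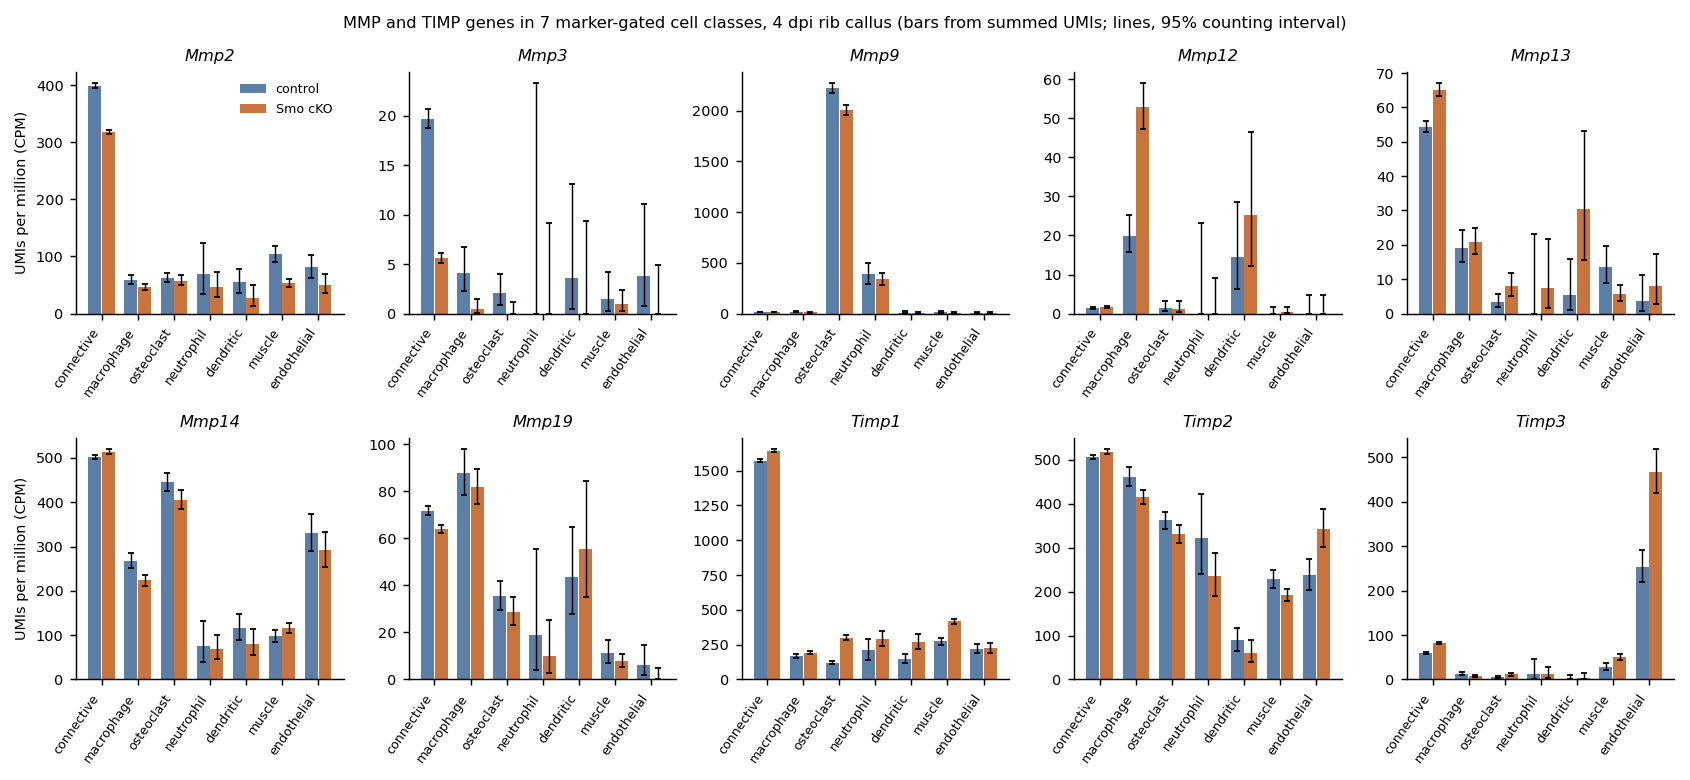
CPM of each of the 10 members (vertical axes, 1 scale per gene, starting at 0) in 7 cell classes, for the control (blue) and *Smo* cKO (orange) library, with lines for the 95% counting interval. *Mmp9* stands in osteoclast-like cells in both libraries, *Timp1* and *Mmp2* in connective-like cells, *Timp3* in endothelial-like cells and *Mmp12* in macrophage-like cells, while *Mmp14* and *Timp2* are spread over several classes.

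The genes *Mmp13*, *Mmp12* and *Mmp3* lie near each other. On the GRCm38 genome (GENCODE vM21), *Mmp13* is at chr9:7272514-7283331, *Mmp12* at chr9:7344381-7369499 and *Mmp3* at chr9:7445822-7455975, all on the plus strand and within 183462 bases. The other members are dispersed: *Mmp2* at chr8:92827291-92853420, *Mmp9* at chr2:164940780-164955850, *Mmp14* at chr14:54431612-54445364, *Mmp19* at chr10:128790910-128800824, *Timp1* at chrX:20870166-20874735, *Timp2* at chr11:118301069-118355740 on the minus strand and *Timp3* at chr10:86300372-86349506. RefSeq promoter windows (GRCm38.p6, 250 bases before to 50 after a transcript start) were matched for 7 of the 10 members, with a second window for *Mmp12*. The 3 chromosome 9 neighbors are shown because their windows share a motif, while among the subclasses of connective-like and macrophage-like cells *Mmp13* was highest in osteoblast-like, *Mmp12* in *Arg1*-*Spp1* and *Mmp3* in fibroblast-like cells. All 3 held the AP-1 letters TGAGTCA on one of the strands, marked in capitals, a match found in 5.20% of all 32851 windows of this length. The windows of *Mmp14*, *Timp1*, *Timp2* and *Timp3* and the first window of *Mmp12* held none. The windows are chr9:7272264-7272563 for *Mmp13*, chr9:7347124-7347423 for the second start of *Mmp12* and chr9:7445572-7445871 for *Mmp3*, written 5′ to 3′ on the plus strand.
Mmp13: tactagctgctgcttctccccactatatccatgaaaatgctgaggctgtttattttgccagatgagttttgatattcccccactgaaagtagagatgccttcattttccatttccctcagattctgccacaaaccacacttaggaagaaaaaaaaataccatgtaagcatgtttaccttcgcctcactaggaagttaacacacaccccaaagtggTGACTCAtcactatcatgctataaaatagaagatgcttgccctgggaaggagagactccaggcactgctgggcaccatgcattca
Mmp12: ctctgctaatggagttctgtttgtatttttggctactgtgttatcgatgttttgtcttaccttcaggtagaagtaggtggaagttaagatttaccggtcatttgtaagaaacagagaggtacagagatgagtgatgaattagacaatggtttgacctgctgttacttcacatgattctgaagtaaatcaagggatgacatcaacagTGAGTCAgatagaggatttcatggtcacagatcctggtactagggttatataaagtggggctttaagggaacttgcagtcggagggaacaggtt
Mmp3: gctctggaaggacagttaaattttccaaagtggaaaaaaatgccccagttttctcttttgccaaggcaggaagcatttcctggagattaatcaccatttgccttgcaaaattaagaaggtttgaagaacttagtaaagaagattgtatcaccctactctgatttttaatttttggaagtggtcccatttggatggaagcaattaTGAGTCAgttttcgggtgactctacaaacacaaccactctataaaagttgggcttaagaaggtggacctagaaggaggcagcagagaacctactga

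The match began at position -35 in *Mmp13*, -44 in *Mmp12* and -46 in *Mmp3*, counting the last base before the transcript start as -1. The *Mmp13* match is to the minus strand and reads TGACTCA as printed. The same 3 windows were also those of the members with the TATA box letters TATAAA, found in 13.6% of all windows on either strand. These letters began at position -16 in *Mmp13* and -7 in *Mmp3*, and at base 5 of the transcript in *Mmp12*. Only the *Mmp13* window held the RUNX letters TGTGGTT, on its minus strand, against 5.27% of all windows. These are matches of letters and no binding was measured here.

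*Mmp9*, gelatinase B, was an osteoclast-like transcript. It was at 2221 CPM in control and 2003 CPM in *Smo* cKO osteoclast-like cells, from 8693 and 6510 UMIs. Neutrophil-like cells followed at 385 and 339 CPM, so that osteoclast-like cells were 5.77-fold (interval 4.49 to 7.55) and 5.90-fold (4.98 to 7.04) above them. This fold depended on the cells kept and on their weights. It was 2.33 and 1.99 under the study's stated limit of 2000 genes per cell, which kept 116 and 25 osteoclast-like cells, 4.41 and 3.02 with the mean over cells, and 8.05 and 11.3 in cells of 2000 or more UMIs. Every other of the 7 classes was at or below 18.1 CPM. *Mmp9* was the only one of the 5 members tested that was at least 4-fold above each other class in both libraries, a mark reached by 1.43% of all genes tested in osteoclast-like cells. *Mmp9* missed this mark in both libraries under the limit of 2000 genes, and in *Smo* cKO with the mean over cells. The osteoclast-like cells made up 3.95% and 2.44% of all cells and held 83.6% and 77.6% of all *Mmp9* UMIs.

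Not every osteoclast-like cell had *Mmp9*. Of 397 control cells 308 had a UMI (77.6%, 73.2 to 81.6%), as did 177 of 232 in *Smo* cKO (76.3%, 70.3 to 81.6%), at median depths of 9169 and 11751 UMIs. In T- or NK-like cells, which should lack it, 0 of 20 and 1 of 65 cells had a UMI, at median depths of 1819 and 1726 UMIs. With every cell thinned to 1000 UMIs the osteoclast-like shares were 55.5% (50.4 to 60.5%) and 46.1% (39.6 to 52.8%). The median cell had 7 and 8.5 UMIs, the highest had 325 and 226, and the 10% of cells with most *Mmp9* held 48.5% and 50.0% of it. Neutrophil-like cells, at median depths of 1167 and 1822 UMIs, had at most 3 and 5 UMIs of *Mmp9* per cell, and thinned shares of 41.7% (29.1 to 55.1%) and 37.8% (28.8 to 47.5%), whose intervals overlap those of osteoclast-like cells.

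*Mmp12*, macrophage elastase, was carried by few cells and, of the 7 main classes, was highest in macrophage-like cells. They had 19.99 CPM in control and 52.8 CPM in *Smo* cKO, a log2 ratio of 1.40 (1.03 to 1.79). Dendritic-like cells came next at 14.5 and 25.3 CPM, below macrophage-like cells by 1.38-fold (0.664 to 3.31), which counting error does not tell apart, in control and by 2.09-fold (1.12 to 4.40) in *Smo* cKO. Within macrophage-like cells it was highest in the *Arg1*-*Spp1* subclass, cells marked by arginase and osteopontin, at 56.6 and 132 CPM, against 3.75 and 6.83 CPM in the *Ccl8*-*Mrc1* subclass, marked by the mannose receptor. Osteoclast-like cells, which share the myeloid origin, had 1.53 and 1.23 CPM, and neutrophil-like cells had no UMI in either library, which allows up to 18.9 and 7.43 CPM. Monocyte-like cells had 5 UMIs, all in 1 of 24 control cells (75.9 CPM, 24.6 to 177), and none in 55 *Smo* cKO cells, which allows up to 15.2 CPM.

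In the *Arg1*-*Spp1* subclass the log2 ratio was 1.22 (0.76 to 1.70). Of 252 control cells 19 had a UMI (7.54%, 4.60 to 11.5%), and of 508 *Smo* cKO cells 66 had one (12.99%, 10.2 to 16.2%), at median depths of 2899 and 3365 UMIs, and no T- or NK-like cell had one. Thinned to 1000 UMIs the shares were 4.62% (2.33 to 8.12%) and 7.78% (5.59 to 10.5%), intervals that overlap. One *Smo* cKO cell alone held 62 of the 253 UMIs, and without the highest cell of each library the log2 ratio was 1.04, from 48.4 to 99.9 CPM. Under the study's stated limit of 2000 genes per cell, which left 245 and 481 of these cells, it was 0.91, short of 2-fold. The *Arg1*-*Spp1* cells themselves were 2.51% of control and 5.34% of *Smo* cKO cells. Markers of this subclass also differed between control and *Smo* cKO. *Spp1* was at 5086 and 9969 CPM, *Trem2* at 858 and 1007 CPM and *Fabp5* at 5040 and 5475 CPM. *Gpnmb* was at 557 and 578 CPM and *Arg1* at 461 and 368 CPM. The part of such a shift within the gate in the *Mmp12* ratio was not tested. Of the 6 members tested in macrophage-like cells, *Mmp12* was the 1 called higher and none was called lower, against 1.84% and 0.28% of all genes tested. This call depended on single cells. Without the highest cell of each library, macrophage-like *Mmp12* was at 17.5 and 42.7 CPM (log2 ratio 1.28), under the 50 CPM minimum for a call. In the *Arg1*-*Spp1* subclass the count was again 1 and 0 of 6, against 1.56% and 0.738%. The other tested members of macrophage-like cells were within a log2 ratio of -0.33 (*Mmp2*) and 0.18 (*Timp1*), while *Mmp14* was at 267 and 223 CPM and *Timp2* at 462 and 416 CPM.

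*Mmp13*, collagenase 3, was highest in osteoblast-like cells, a small group of 25 control and 28 *Smo* cKO cells gated on genes such as osteocalcin and *Ibsp*. There it was at 1056 CPM (955 to 1164) in control and 1091 CPM (1000 to 1188) in *Smo* cKO. Skeletogenic cells, marked by *Fmod*, *Acan* and *Col11a1* and including cartilage genes, came next at 167 and 126 CPM, so that osteoblast-like cells were 6.31-fold (5.60 to 7.09) and 8.65-fold (7.71 to 9.70) above them. Fibroblast-like cells marked by *Sfrp4*, *Eln* and *Col14a1* were lowest in both libraries, at 15.1 and 20.4 CPM.

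*Mmp13* came from a minority of cells. In osteoblast-like cells the median count was 4 and 2.5 UMIs, the 3 highest cells held 57.6% and 76.5% of the transcript, and 1 *Smo* cKO cell held 187 of 528 UMIs. In all connective-like cells the median count was 0 in both libraries, 199 cells in each had 5 or more UMIs, and the top 10% of cells held 96.6% and 96.2% of the transcript. The difference between genotypes had no single direction across subclasses: 36.8 to 57.8 CPM in the *Tnc*-*Inhba* activated subclass (log2 ratio 0.65, 0.56 to 0.75), 167 to 126 CPM in skeletogenic cells (-0.41, -0.55 to -0.27) and 91.6 to 40.4 CPM in tendon-like cells (-1.18, -1.51 to -0.85). The last of these was past 2-fold, in 139 control and 220 *Smo* cKO cells, a class for which the share of all genes called was not computed. With classes taken from clusters in place of marker gates, the skeletogenic ratio turned to 0.46, and under the limit of 2000 genes the *Tnc*-*Inhba* ratio turned to -0.84, so neither of those 2 directions held. The tendon-like ratio, from 187 and 135 UMIs, was not recomputed under any other setting.

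*Mmp3*, stromelysin 1, was highest among connective subclasses in the *Sfrp4*-*Eln*-*Col14a1* fibroblast-like one and was lower in the *Smo* cKO library. Fibroblast-like cells held 900 of its 1768 UMIs in control and 222 of 483 in *Smo* cKO. Connective-like cells of no named subclass held 531 and 88, at 18.9 and 4.19 CPM. In control *Mmp3* was at 65.8 CPM in fibroblast-like cells, 35.8 CPM in tendon-like cells and 3.96 CPM in *Tnc*-*Inhba* activated cells. The *Smo* cKO levels were 25.5, 19.5 and 1.52 CPM, lower in each of these subclasses, and there fibroblast-like and tendon-like cells were not told apart by counting error (1.31-fold, 0.991 to 1.76). The log2 ratio in fibroblast-like cells was -1.37 (-1.58 to -1.15), from 900 and 222 UMIs. Markers of this subclass also differed between control and *Smo* cKO. *Clec3b* was at 246 and 122 CPM, *Col14a1* at 1081 and 862 CPM and *Ptx3* at 739 and 558 CPM. *Eln* was at 1430 and 2043 CPM, *Sfrp4* at 734 and 992 CPM and *Fbn1* at 828 and 836 CPM. The part of such a shift within the gate in the *Mmp3* ratio was not tested.

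Detection of *Mmp3* was 16.3% (14.6 to 18.2%) of 1616 control and 8.53% (6.74 to 10.6%) of 856 *Smo* cKO fibroblast-like cells, at median depths of 7728 and 9054 UMIs, and 0 of 20 and 0 of 65 T- or NK-like cells had a UMI. Thinned, the shares were 5.17% (4.14 to 6.37%) and 3.53% (2.39 to 5.00%), which overlap. Under the limit of 2000 genes, which kept 680 and 255 of these cells, the levels were 73.4 and 56.3 CPM and the log2 ratio was -0.38, and with the mean over cells in place of the sum it was -0.98, so that both missed the 2-fold line. In all connective-like cells, where *Mmp3* was under the 50 CPM minimum, levels were 19.7 and 5.60 CPM, a log2 ratio of -1.82 (-1.97 to -1.67) that stayed below -1 under all 10 alternative settings, at -1.06 to -1.91. Fibroblast-like cells were 16.1% of control and 9.004% of *Smo* cKO cells, and their share moved with the connective-like level of *Mmp3*. Its part in that level was not tested beyond the values within the subclass given above.

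**Figure D2:**
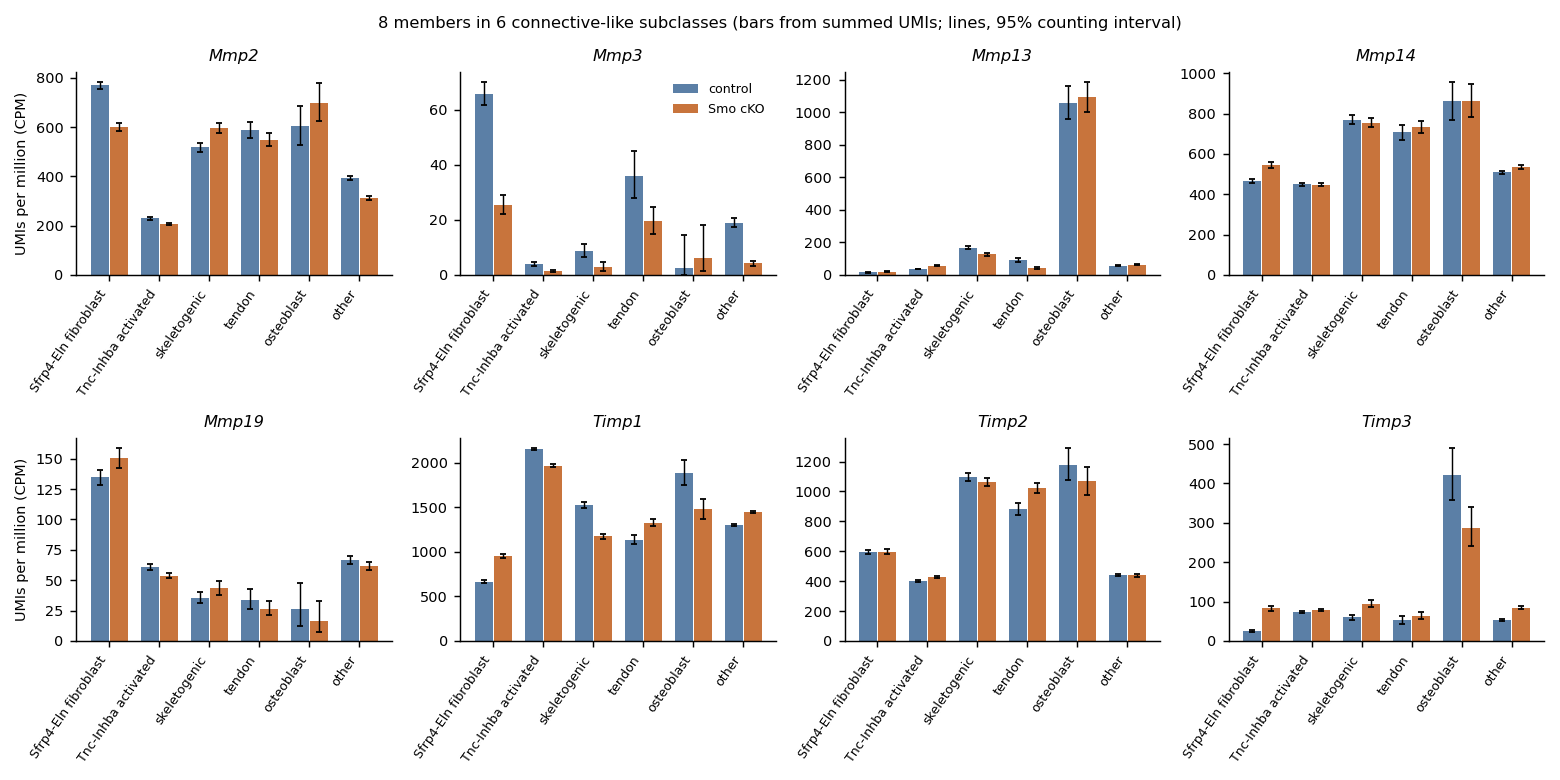
CPM of 8 members (vertical axes, 1 scale per gene, starting at 0) in 6 connective-like subclasses for control (blue) and *Smo* cKO (orange), with lines for the 95% counting interval. *Mmp3* and *Mmp19* are highest in *Sfrp4*-*Eln*-*Col14a1* fibroblast-like cells in both libraries, *Timp1* in *Tnc*-*Inhba* activated cells, and *Mmp13* and *Timp3* in osteoblast-like cells.

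*Mmp2* (gelatinase A) and *Mmp14* (MT1-MMP, the membrane protease that activates pro-MMP2 in a complex with TIMP2) were the broadly carried connective proteases. *Mmp2* in connective-like cells was at 399 CPM in control and 318 CPM in *Smo* cKO (log2 ratio -0.33, -0.35 to -0.30), and the next of the 7 main classes reached 103 and 57.8 CPM. Connective-like cells held 96.2% and 94.2% of its UMIs. In control it was highest in fibroblast-like cells at 769 CPM, and in *Smo* cKO in osteoblast-like cells at 698 CPM, followed by fibroblast-like cells at 601 CPM and skeletogenic cells at 596 CPM, a neighboring pair not told apart by counting error.

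*Tnc*-*Inhba* activated cells were lowest for *Mmp2*, at 229 and 206 CPM. *Mmp14* differed less between connective-like subclasses, from 450 CPM in *Tnc*-*Inhba* activated to 861 CPM in osteoblast-like control cells, and from 447 to 862 CPM in *Smo* cKO. Outside connective-like cells, *Mmp14* was also present in osteoclast-like cells at 445 and 406 CPM, endothelial-like cells at 330 and 292 CPM and macrophage-like cells at 267 and 223 CPM. In T- or NK-like cells 0 and 4 UMIs were found, 27.1 CPM in the *Smo* cKO library.

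*Mmp2*, *Mmp14* and *Timp2* were detected together in most connective-like cells, in 81.1% (80.2 to 82.1%) of control and 80.4% (79.3 to 81.5%) of *Smo* cKO cells. Macrophage-like cells reached 4.66% and 6.02%, at median depths of 2452 and 3221 UMIs against 10967 and 13466 in connective-like cells. At 1000 UMIs per cell all 3 were found in 6.92% (6.31 to 7.58%) and 6.10% (5.46 to 6.79%) of connective-like cells, against 0.245% (0.0505 to 0.714%) and 0.378% (0.139 to 0.820%) of macrophage-like cells. Skeletogenic cells had the highest thinned share of the classes examined, 14.7% (11.7 to 18.2%) and 11.6% (8.86 to 14.8%).

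*Mmp19* (a protease also known as RASI-1) was shared by macrophage-like and connective-like cells. It was at 87.6 and 81.7 CPM in macrophage-like and 71.8 and 63.9 CPM in connective-like cells. Fibroblast-like cells were the highest connective subclass at 135 and 151 CPM, 2.02-fold (control) and 2.46-fold (*Smo* cKO) above the next. Its highest level was in the few mesothelial- or epithelial-like cells, 347 CPM (256 to 459) in 14 control cells and 163 CPM (124 to 211) in 28 *Smo* cKO cells, a log2 ratio of -1.08 that rests on 48 and 59 UMIs. In *Smo* cKO this was not told apart by counting error from fibroblast-like cells. Of the mesothelial- or epithelial-like cells, 5 in control and 10 in *Smo* cKO also held markers of a second class. The part of such mixed cells in the levels of this class was not tested, for *Mmp19* or for other members. Its *Mmp19* ratio, past 2-fold, was not recomputed, and the share of all genes called was not computed for this class.

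Among the inhibitors, *Timp1*, which is induced in injured tissue, was a connective-like transcript with its peak in *Tnc*-*Inhba* activated cells. It was at 1572 and 1644 CPM in connective-like cells, 5.76-fold and 3.95-fold above muscle-like cells, the next of the 7 main classes. In *Tnc*-*Inhba* activated cells it was at 2156 and 1968 CPM, with a median of 29 and 26 UMIs per cell. Fibroblast-like cells were lowest of the connective subclasses at 666 and 949 CPM, a log2 ratio of 0.51 (0.47 to 0.56). The order of *Timp1* thus ran opposite to that of *Mmp2* at both ends, in both libraries for *Tnc*-*Inhba* activated cells and in control for fibroblast-like cells.

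*Timp1* in osteoclast-like cells was 120 CPM in control and 300 CPM in *Smo* cKO, a log2 ratio of 1.32 (1.16 to 1.48) and the 1 call among 5 members tested there. All 8 connective markers were also found in these cells, at a summed 3711 and 4569 CPM. Per 100 UMIs of those markers there were 3.23 and 6.56 UMIs of *Timp1*. That ratio was also higher in the *Smo* cKO library in each other class examined, by differing amounts. It went from 6.19 to 8.33 in macrophage-like, 4.63 to 5.39 in connective-like and 7.43 to 13.4 in dendritic-like cells. In neutrophil-like cells it went from 4.18 to 8.82, in T- or NK-like cells from 3.96 to 7.06 and in muscle-like cells from 4.34 to 8.52. Endothelial-like cells went from 8.12 to 16.7 and erythroid-like cells from 2.52 to 7.24. Without cells that held markers of a second class the osteoclast-like levels were 80.8 and 152 CPM, a log2 ratio of 0.91, short of 2-fold, as were the ratios with the mean over cells (0.98) and under the limit of 2000 genes (0.59). The part of free connective RNA in this difference was not tested. Of all genes tested in these cells 1.42% were called higher and 0.0838% lower, while no member was called lower.

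*Timp2*, which inhibits MMPs and takes part in the activation of pro-MMP2, was present in several classes. It was at 507 and 519 CPM in connective-like, 462 and 416 CPM in macrophage-like, 362 and 331 CPM in osteoclast-like and 238 and 343 CPM in endothelial-like cells. Osteoblast-like cells at 1180 and 1068 CPM and skeletogenic cells at 1097 and 1064 CPM were highest of the connective subclasses, and this pair overlapped within counting error in both libraries. The 14 control and 28 *Smo* cKO mesothelial- or epithelial-like cells had 1393 and 1376 CPM, with a UMI in every cell.

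*Timp3*, the inhibitor that binds to the matrix itself, was highest in endothelial-like cells among the 7 main classes. It was at 254 CPM (220 to 292) and 467 CPM (420 to 518) in 62 cells of each library, a log2 ratio of 0.88 (0.63 to 1.14) that passed 2-fold, at 1.02, without the highest cell of each library. These levels were 4.24-fold and 5.71-fold above connective-like cells. Mural-like cells, gated on genes such as *Rgs5* and *Notch3*, had 295 and 238 CPM, and mesothelial- or epithelial-like cells 498 and 823 CPM. Osteoblast-like cells stood apart in the connective class, at 421 and 287 CPM.

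In fibroblast-like cells *Timp3* was at 26.02 CPM in control and 83.0 CPM in *Smo* cKO, a log2 ratio of 1.67 (1.49 to 1.86). It was found in 11.3% (9.76 to 12.9%) and 23.8% (21.0 to 26.8%) of these cells, and when thinned in 2.24% (1.58 to 3.09%) and 6.12% (4.60 to 7.95%), intervals that do not overlap, against 0 of 17 and 1 of 61 thinned T- or NK-like cells. In control fibroblast-like cells were the lowest connective subclass for *Timp3*, 2.05-fold (1.64 to 2.55) below tendon-like cells. In *Smo* cKO they were level with other connective-like cells and with *Tnc*-*Inhba* activated cells within counting error.

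A cluster of 106 cells marked by *Serpinb2* and *Dlk1*, with no control cell, contributed 35 of the 856 *Smo* cKO fibroblast-like cells and carried 225 CPM of *Timp3*. Without this cluster, which may stand for the library and not for a cell type, fibroblast-like *Timp3* was at 71.3 CPM and the log2 ratio was 1.45. Under the limit of 2000 genes it was 0.99, just short of 2-fold. With classes taken from clusters in place of marker gates, levels were 22.9 and 49.6 CPM (log2 ratio 1.12), under the 50 CPM minimum for a call. In the other connective subclasses the log2 ratio was smaller or of the other sign. It was 0.07 (0.00 to 0.15) in *Tnc*-*Inhba* activated and 0.64 (0.44 to 0.84) in skeletogenic cells. Connective-like cells of no named subclass had 0.65 (0.55 to 0.75) and tendon-like cells 0.24 (-0.10 to 0.59). In osteoblast-like cells, the highest of these subclasses for *Timp3*, it was -0.55 (-0.89 to -0.22), from 162 and 139 UMIs.

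Over all connective-like cells 7 members reached 50 CPM and none was called in either direction, where 0.742% of all genes tested were called higher and 0.156% lower. Under the limit of 2000 genes, which kept 24.0% and 17.2% of these cells, *Timp3* was called higher (log2 ratio 1.47) and *Mmp3* lower (-1.06). The share of all genes called under that limit was not computed. Without it, the median log2 ratio of the 7 members was 0.04, against 0.05 over 2560 genes. In fibroblast-like cells *Timp3* was called higher and *Mmp3* lower out of 7 tested, against 2.15% and 0.399% of all genes, whose median ratio there was itself 0.14. The counts were 0 of 7 in both directions in *Tnc*-*Inhba* activated cells (0.851% and 0.155% of all genes), 0 of 6 in skeletogenic cells (1.54% and 0.639%) and 0 of 5 in endothelial-like cells (2.61% and 1.04%). Of the 7 members tested in connective-like cells, none was at least 4-fold above each other class in both libraries. That mark was reached by 2.75% of all genes tested in them. *Timp1* passed 4-fold in control only (5.76-fold, against 3.95-fold in *Smo* cKO). *Mmp2* passed it in *Smo* cKO only (5.50-fold, against 3.85-fold in control). *Mmp3*, under the 50 CPM minimum and so not tested, was 4.80-fold and 5.99-fold above the next class.

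**Figure D3:**
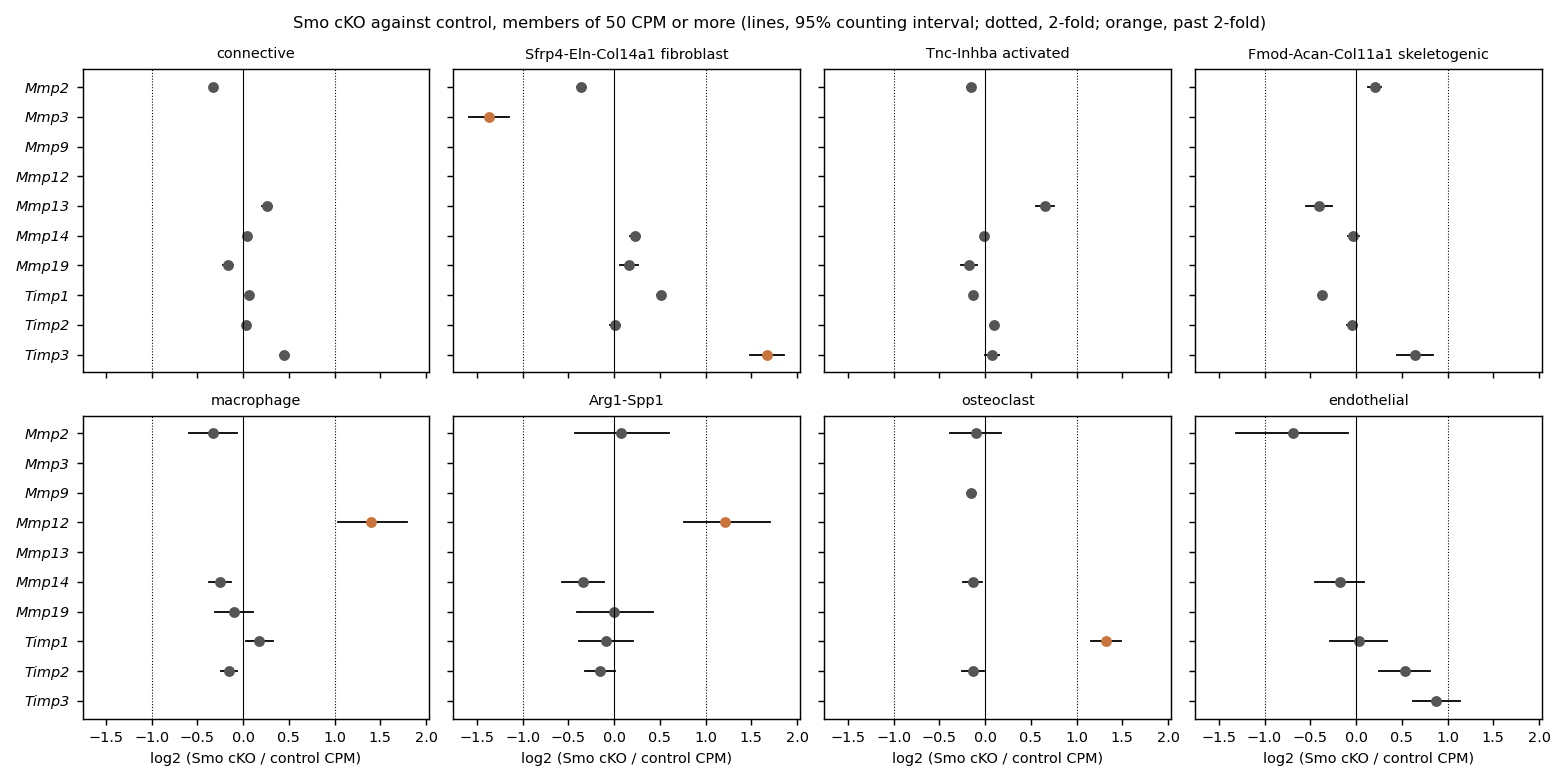
Log2 ratio of *Smo* cKO over control CPM (horizontal axes) for every member at 50 CPM or above in at least 1 library, in 8 classes or subclasses, with lines for the 95% counting interval and dotted lines at 2-fold. The points past 2-fold, in orange, are *Mmp3* and *Timp3* in fibroblast-like cells, *Mmp12* in macrophage-like and *Arg1*-*Spp1* cells and *Timp1* in osteoclast-like cells.

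The spread of a transcript over the cells of its class separated the members. For *Mmp2*, *Mmp14*, *Timp1* and *Timp2*, the 10% of cells with most UMIs held 25.4% to 32.3% in the classes shown in the plot of unevenness. For *Mmp3* in fibroblast-like and *Mmp12* in *Arg1*-*Spp1* cells they held 88.7% to 100%. *Mmp9* in osteoclast-like and *Mmp19* in fibroblast-like cells lay between, at 46.2% to 50.0%. Low counts alone raise this share, since a cell with 0 UMIs cannot be told from one with little transcript at this depth.

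**Figure D4:**
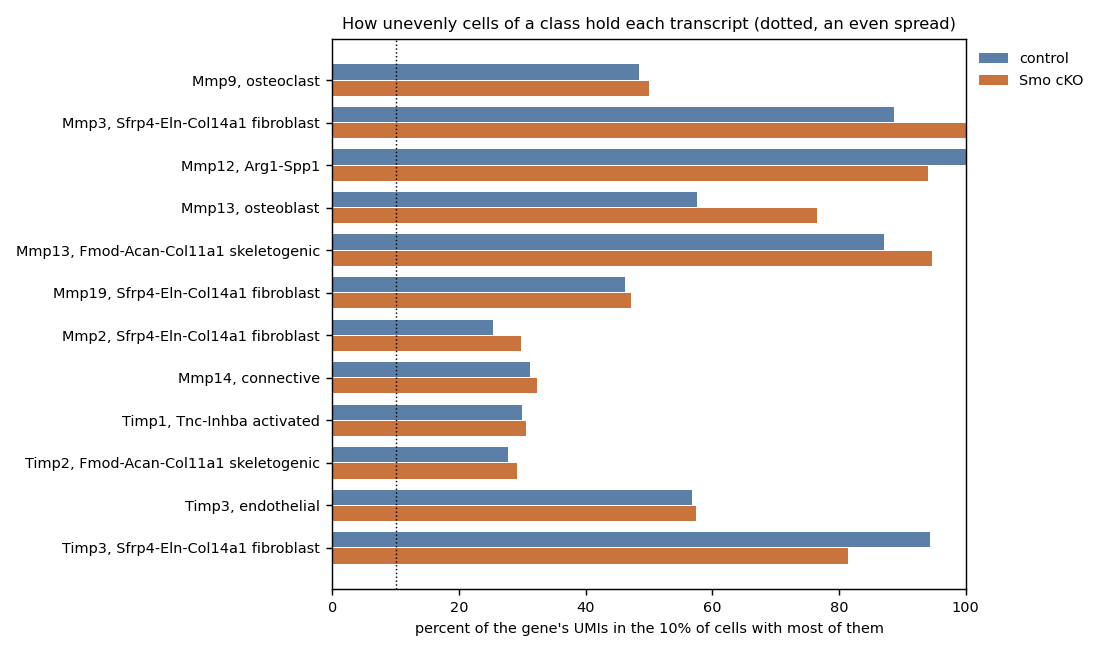
Percent of a member's UMIs (horizontal axis, 0 to 100) that lie in the 10% of cells of a class with most of them, for 12 pairs of member and class in control (blue) and *Smo* cKO (orange). The dotted line marks an even spread at 10%. *Mmp2*, *Mmp14*, *Timp1* and *Timp2* are at 25.4% to 32.3%, and *Mmp3* and *Mmp12* at 88.7% to 100%.

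The share of member UMIs that came from the 7 MMPs, a sum not corrected for transcript length, differed between classes. It was 85.0% in control and 79.6% in *Smo* cKO osteoclast-like cells, and 33.2% and 30.5% in connective-like cells. Among connective subclasses it was lowest in *Tnc*-*Inhba* activated cells at 23.3% and 24.1%. Fibroblast-like cells had 53.2% in control and 45.4% in *Smo* cKO, with lower *Mmp2* and *Mmp3* and higher *Timp1* and *Timp3* in the latter. Not every MMP was lower there, since *Mmp14* went from 465 to 545 CPM and *Mmp19* from 135 to 151 CPM.

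Genes with the most similar pattern were ranked by Pearson r of log2(CPM + 10) over 26 points, 13 classes in 2 libraries, among 5114 genes. The points share libraries and cells' depth, so r is a description. Nearest to *Mmp2* were the matrix genes *Dcn* (r = 0.980), *Mfap2* (0.980) and *Fndc1* (0.977), and nearest to *Timp1* were *Loxl2* (0.973), *Col6a3* (0.965) and *Kdelr3* (0.965). *Dcn*, *Loxl2*, *Clec3b* and *Fabp5* were used to assign cells. For *Mmp9* they were *1110008P14Rik* (0.918), *Dock5* (0.856) and *Bdh2* (0.832), and for *Mmp12* *Fabp5* (0.841) and *Psap* (0.806). *Clec3b* (0.876) led for *Mmp3*, *Rac3* (0.863) for *Mmp13*, *Colgalt1* (0.926) for *Mmp14*, *Mt1* (0.883) for *Mmp19*, *Tspan31* (0.856) for *Timp2* and *Nr2f2* (0.946) for *Timp3*.

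Of 56 other genes of matrix turnover, 55 were among the features. In connective-like cells 1 other MMP, 5 inhibitors or regulators of MMPs, 4 genes of the plasminogen system, 7 of the ADAM and ADAMTS families and 7 matrix substrates reached 50 CPM, and none was called in either direction. The other MMP was *Mmp23*, at 184 and 181 CPM. Among the regulators *Sparc*, a matrix-binding protein, was at 8789 and 9162 CPM. *Adamts2*, a procollagen protease, was at 186 and 187 CPM, and *Col1a2* at 10820 and 9781 CPM. In macrophage-like cells 16 genes were tested and none was called, with the protease *Adam8* at 171 and 196 CPM. In neutrophil-like cells *Mmp8*, the neutrophil collagenase, was at 391 and 436 CPM, beside the *Mmp9* level given above.

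Members that overlap other genes could share reads, since use of strand in the counting, done with default parameters, is not given in the sources used here. *Timp1* lies inside *Syn1* on the opposite strand, which had 176 and 197 UMIs against 144429 and 156320 for *Timp1* over all barcodes. *Timp3* lies inside *Syn3* on the opposite strand, with 40 and 51 UMIs, and *Mmp12* overlaps *Mmp1b*, with 0 UMIs in both libraries. *Cep295nl* lies inside *Timp2* on the same strand, with 100 and 121 UMIs. *Mmp19* overlaps *Tmem198b* at its 3′ end on the opposite strand, with 1348 and 1382 UMIs against 7088 and 6434.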

How the data were processed

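The authors made both count matrices with Cell Ranger 3.0.2 on mm10, per the labels and the submitters' processing notes, and deposited raw UMI counts per gene and cell barcode, without normalization. Calluses had been digested for 60 min at 37 °C. The tools were Python 3.11.15, scipy 1.17.1 for intervals, numpy 2.4.6 for sums and pandas 2.3.3 for tables.

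Cells with 200 or more genes and under 10% of UMIs on 13 mitochondrial genes were kept, and the study's upper limit of 2000 genes was an alternative. A cell joined the class whose marker list stood highest over its cut-off, with 3 or more markers detected. The members, gene lists and named-gene rule were chosen with earlier results of these data known, and cut-offs after the marker distributions were seen. The rule named the 10 members, the 3 genes nearest to each in pattern and, of the other lists, genes past 2-fold or highest of their group. Some genes that this rule names are not reported here. No doublet caller was run. Cells with markers of a second class (240 control, 270 *Smo* cKO) were left out as an alternative. Clusters came from leidenalg 0.10.2 with 20 neighbors. Ratios have exact Poisson intervals and shares Clopper-Pearson intervals at 95%. A count of 0 was given the limit of 3 counts. On simulated counts at the depth of fibroblast-like cells, 100% of 200 genes changed 4-fold were called and none of 2238 unchanged genes. These counts held counting error only, without variation between cells, animals or libraries, and changed genes started well above the 50 CPM minimum. The outcome therefore checks the calculation and not the calls on members.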

Additional observations from a re-analysis of the deposited data

How the results depend on the processing

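Of 209 recomputed log2 ratios (21 ratios under up to 10 settings), 201 kept their sign and 200 their side of the 2-fold line. Most of the 21 ratios lay within 2-fold from the start. Among those past it, *Timp1* in osteoclast-like cells kept its side in 7 of 10 settings and *Mmp3* in fibroblast-like cells in 8 of 10. *Mmp12* in *Arg1*-*Spp1* cells kept it in 8 of 9 and *Timp3* in fibroblast-like cells in 9 of 10. The ratios of *Mmp12* in macrophage-like and *Mmp3* in all connective-like cells kept it in all 10. With 200 to 2000 genes per cell, the connective-like count of members called was 1 higher (*Timp3*) and 1 lower (*Mmp3*) in place of 0 and 0, and the macrophage-like count was 0 in place of 1, since *Mmp12* was at 20.5 and 47.2 CPM, under the minimum. Taking the mean over cells, the macrophage-like count was also 0. The limit on genes left 24.0% and 17.2% of connective-like cells. The share of all genes called was not computed under either setting. Without the highest cell of each library, macrophage-like *Mmp12* was at 17.5 and 42.7 CPM, also under the minimum. No called ratio that was recomputed reversed. The tendon-like *Mmp13* ratio and the ratios of mesothelial- or epithelial-like, erythroid-like and other small classes were not among those recomputed. Nor were those of cells that joined no class, where *Mmp13* was at 53.2 and 13.7 CPM (log2 ratio -1.96). Several of these ratios were past 2-fold, and the share of all genes called was not computed for these classes. Leaving out shared barcodes, the cluster absent from control or the highest cell was chosen after seeing the data. Leaving out a replicate and any test between genotypes were not possible with 1 library per genotype, and depth limits *Mmp3*, *Mmp12* and all values of classes under 100 cells. No paired analysis was possible because no result comes from a test.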

Other observations

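The *Serpinb2* and *Dlk1* cluster, which had 106 *Smo* cKO and 0 control cells, carried 2167 CPM of *Timp1*, 138 CPM of *Mmp19* and 226 CPM of *Mmp2*. *Serpinb2*, an inhibitor of plasminogen activators, was at 888 CPM in it. Over all fibroblast-like cells *Serpinb2* was at 11.6 CPM in control and 70.3 CPM in *Smo* cKO.

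Among matrix substrates, *Eln* in skeletogenic cells was at 102 CPM in control and 274 CPM in *Smo* cKO, and *Acan* at 439 and 208 CPM. Both genes were also used to assign cells to connective-like subclasses, so these values are not independent of the classes.

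Cycling connective-like cells (1084 control and 1037 *Smo* cKO cells with at least 3 of 5 division genes) carried more *Timp1* than the others, 2017 against 1414 CPM in control and 1878 against 1549 CPM in *Smo* cKO, and less *Mmp2*, 239 against 456 CPM and 223 against 357 CPM. *Timp3* was also higher in cycling cells, at 80.7 against 52.4 CPM and 92.4 against 77.4 CPM. The *Timp1* and *Mmp2* levels of cycling cells lay near those of *Tnc*-*Inhba* activated cells, 2156 and 1968 CPM of *Timp1* and 229 and 206 CPM of *Mmp2*. Median depths of cycling cells were 20027 and 21752 UMIs, against 9795 and 11928 in the others. The parts of depth and of the mix of subclasses in these differences were not tested.

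In the 14 control and 28 *Smo* cKO mesothelial- or epithelial-like cells, *Timp1* was at 289 and 1005 CPM, from 40 and 363 UMIs. Of these cells, 5 in control and 10 in *Smo* cKO also held markers of a second class. Among erythroid-like cells, of which 41 of 49 in control and 36 of 132 in *Smo* cKO also held markers of a second class, *Mmp2* was at 305 and 91.1 CPM and *Mmp3* at 52.8 and 5.42 CPM. These *Timp1*, *Mmp2* and *Mmp3* levels were past 2-fold apart. Their ratios were not recomputed under any other setting, and the share of all genes called was not computed for these classes.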
